A study of Gallus gallus and Anas platyrhynchos and Coturnix japonica with 43 samples.

Results

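The hypothalamus of Japanese quail was compared directly with that of White turkey, on the 3 quail and the 3 turkey hypothalamus arrays among the 43 arrays of the study. These 6 arrays were taken by their titles, and no chicken array entered the contrast. Where chicken hypothalamus levels are cited below, the titles describe lean-line chickens aged 9 weeks, so line and age may differ from those of the quail and turkeys. Chicken liver, breast muscle and abdominal fat came from birds aged 6 weeks by their titles. Those arrays enter the shared spread and some correlations below. Each array carried spotted chicken cDNA clones and was hybridised with 1 bird sample in Cy3 and with a common chicken pool in Cy5, made from hypothalamus, liver, breast muscle and abdominal fat RNA. Every hypothalamus value is therefore a ratio to the same kind of pool, whose labelled cDNA was mixed anew for each set of slides. The quail belonged to a randomly bred colony kept at 15 h of light and 9 h of dark, brooded for 6 weeks, mature at 8 weeks and housed singly from 9 to 12 months. The age and sex of the sampled quail, and the age, sex and housing of the turkeys, were not given in the sources used here, nor was any treatment. Nothing in the labels says that each array came from a separate bird, so the spread between arrays may be partly technical. P-values of the main comparison rest on the spread within groups over all 43 arrays, not on these 6 samples alone.

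The hypothalamus controls body temperature, feeding, the light-driven start of breeding and, through peptides released to the pituitary, the hormones of growth, thyroid and gonad. Its tissue holds neurons that make those peptides, oligodendrocytes that wrap axons in myelin, astrocytes, and ependymal cells and tanycytes that line the ventricle. Quail and turkey both belong to the pheasant family, as does the chicken whose clones were spotted. A clone can bind quail and turkey cDNA unequally where the bird's sequence departs from that of the chicken, and this cannot be told apart from a difference in transcript level, since the arrays hold no quail or turkey clones. In bulk tissue, fewer cells of a type and less RNA per cell cannot be told apart either.

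All levels below are log2 ratios of sample to pool with each array's median set to 0, and a difference is quail minus turkey on that scale, so that 1 stands for a ratio of 2. The direction of the ratio, sample over pool, is likely rather than documented, and rests on tissue markers. Over the 6 arrays the SD of the 18547 probes (clones) ran from 0.571 to 1.12, and 6.64% to 28.9% of an array's variance lay between its 48 print blocks. The 94 spots of 1 clone scattered with an SD of 0.647 to 1.06 on the same array, which limits what a single spot can show. That scatter was wider than the SD over probes on quail array 2 and on each turkey array, at most 0.840 against 0.741 on turkey array 2. It was slightly narrower on quail arrays 1 and 3. Clones that name a gene gave 6428 genes. Mean SD over probes was 0.842 in quail and 0.806 in turkey, a difference of 0.0364 that was smaller than the spread between arrays (exact permutation test, two-sided, p = 0.8, where 3 against 3 arrays cannot go below 0.1).

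Markers of the tissue were read first, against the 4 liver arrays of each species. The synaptic protein SNAP25 had mean levels of 0.92 in quail and 0.63 in turkey hypothalamus, against -0.57 and -0.24 in the livers. SNCB, a synuclein of nerve endings, was at 1.24 and 1.67 in hypothalamus and at -1.05 and -0.99 in liver, and the neuronal tubulin TUBB3 at 0.31 and 0.73 against -1.95 and -1.65. Liver markers went the other way, with the fibrinogen chain FGB at -2.69 and -2.33 in hypothalamus and at 0.50 and 0.33 in liver. These markers set hypothalamus apart from liver in both species. The direction of the ratio was itself inferred from tissue markers, so the sign of these gaps is no separate check of the label. Over 26 measured genes of the neuronal cytoskeleton and axon, median levels were 0.16 in quail and 0.23 in turkey hypothalamus, against -0.44 and -0.56 in liver. Not every neuronal gene lay above its liver level. In turkey the tau gene MAPT was at -0.65 against 0.15 in liver, and the syntaxin STX1A at -1.73 against -1.12. Glial markers were less uniform: MBP, the basic protein of myelin, lay above its liver level in both species, whereas the astrocyte filament GFAP was at -1.31 in quail and -0.86 in turkey hypothalamus, against liver means of -1.27 and -1.57. The quail level was near that of quail liver and the turkey level above that of turkey liver, and both were below the 0.64 of chicken hypothalamus. The markers SYT1, MAG, AQP4, SLC1A3, HBAD, ALAS2 and PTPRC had no named clone.

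Across genes, the means of quail and turkey hypothalamus correlated at r = 0.766, and single arrays resembled each other by their replicate number more than by their species. Quail array 1 and turkey array 1 correlated at 0.713, the arrays numbered 2 at 0.748 and those numbered 3 at 0.584. Within quail the correlations were 0.421, -0.0699 and 0.459, and within turkey 0.233, 0.109 and 0.414. Each array thus had its highest correlation with the array of the same number from the other bird. After the mean of each group was taken off, same-numbered arrays still deviated together (r = 0.645, 0.251 and 0.549), whereas arrays of other numbers ran from -0.553 to -0.0508. Within a group the deviations cancel out for each gene, so positive values for equal numbers force negative ones for other numbers. The negative values are therefore no separate finding. These correlations are across 6428 genes, which are not independent replicates. The labels do not say what a number stands for, and the days of hybridisation, which set the reference aliquot, were not given in the sources used here. Deviations were also set against all arrays outside the contrast, and the extremes are given. Quail array 1 was highest with turkey liver array 1 (0.681) and lowest with chicken hypothalamus array 3 (-0.617). Turkey array 1 was also highest with turkey liver array 1 (0.577). Arrays 3 of both birds were highest with chicken hypothalamus array 3 (0.559 in quail, 0.458 in turkey). The arrays numbered 2 had no such partner of equal number. Quail array 2 reached 0.104 with duck liver array 1, and turkey array 2 reached 0.321 with chicken liver array 4.

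**Figure D1:**
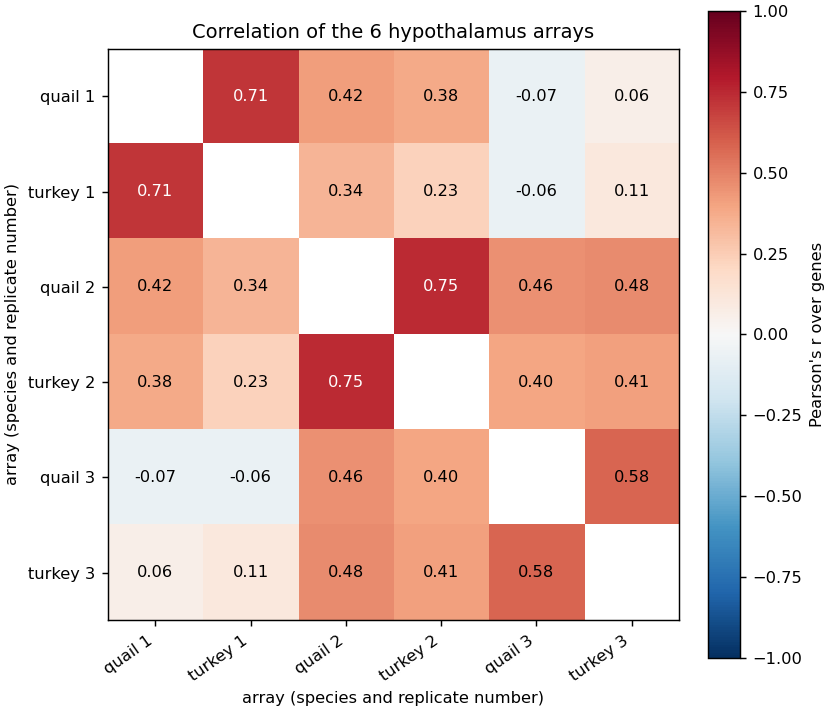
Pearson's r over 6428 genes for each pair of the 6 hypothalamus arrays, with blue for negative and red for positive values and the species and replicate number on both axes. The pairs of equal number next to the diagonal, at 0.71, 0.75 and 0.58, are the darkest red cells, and the 4 lowest values, -0.07 to 0.11, all join an array numbered 1 to an array numbered 3.

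Whole groups of genes differed between arrays 1 and 3 of a species, though not always alike in the 2 birds. In quail, array 1 exceeded array 3 by a median of 0.85 over 45 ribosomal protein genes and of 0.86 over 24 genes of synaptic vesicles, against 0.31 over all genes. In turkey the same step was 0.91 for ribosomal proteins and 0.18 for synaptic vesicles, against 0.22. Myelin and oligodendrocyte genes stood 0.76 higher on quail array 1 than on quail array 3 and 0.36 higher on turkey array 1 than on turkey array 3, and erythrocyte genes 1.91 and 0.97 higher. Developmental transcription factors stepped in opposite directions, by -0.52 in quail and 0.58 in turkey, and immediate early genes by 0.07 and -0.89. A species difference has to be read against steps of this size within each species, and the 3 differences between arrays of equal number are given beside it below.

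No gene and no probe passed the test between quail and turkey hypothalamus. With limma over all 43 arrays and Benjamini-Hochberg adjustment, 0 of 6428 genes (0%) had an adjusted p under 0.05 in either direction, and 56 genes (0.871%) had an unadjusted p under 0.05, 22 (0.342%) higher and 34 (0.529%) lower in quail. The smallest adjusted p was 0.176, for the gene LMF2. On the probes, 0 of 18547 passed and 124 (0.669%) had an unadjusted p under 0.05. With the replicate number as a block and only the 6 arrays in the fit, 0 genes and 0 probes passed, with 190 genes (2.96%) and 555 probes (2.99%) at an unadjusted p under 0.05. The smallest adjusted p over probes was 0.0649 in that fit. The median SE of a gene was 0.461, so the 95% interval of a typical difference reached 0.933 to either side, a fold of 1.91. In the blocked fit of the 6 arrays the median SE was 0.308. Below, SEs, intervals and the choice of leading genes come from the fit without the block, which leaves the pairing unused. The SE of MBP was 0.30 in the blocked fit against 0.46, and that of LMF2 0.33 against 0.29. In both fits the share of genes with an unadjusted p under 0.05 was below 0.05, so 0 calls does not show that the birds are alike. The differences themselves ran from -1.45 for MBP to 1.75 for USP34, with an SD over genes of 0.346, and 52 genes had one of at least 1 in size. Of all 6428 genes, 3404 lay above 0 and 3024 below, which is the frame for the counts of the lists.

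For 205 genes (3.19%) the 3 quail and the 3 turkey arrays did not overlap, with quail above turkey for 115 (1.79%) and below for 90 (1.4%). These shares are the frame for every gene said below to be without overlap. For 1392 genes (21.7%) all 3 pairs of equal number pointed one way, upward for 803 (12.5%) and downward for 589 (9.16%). The 10 genes of smallest p in each direction among those without overlap are described next. None of them passed, and their lack of overlap was a condition of being chosen.

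Among the genes higher in quail hypothalamus, USP34, a large enzyme that removes ubiquitin from proteins, had the largest difference. Its levels were 0.67, 0.37 and 2.62 on the quail arrays and -0.29, -0.15 and -1.16 on the turkey arrays. Every quail array was above every turkey array, but the gap came mostly from the arrays numbered 3. The difference was 1.75 (SE 0.46, adjusted p = 1.0), and 0.736 without both arrays numbered 3. IPO5, a carrier of proteins into the nucleus, was at 0.40, -0.28 and 0.98 in quail and at -0.71, -0.86 and -1.15 in turkey. All 3 turkey arrays lay below the array median and 2 of the 3 quail arrays above it, with a difference of 1.28 (SE 0.40). COQ10A, a mitochondrial protein that binds coenzyme Q, was at -0.25, -0.02 and -0.46 against -1.13, -0.86 and -2.45, a difference of 1.24 (SE 0.48). STEAP3, the reductase that frees iron in endosomes, was low in both birds, at -1.56, -1.45 and -1.69 in quail and at -1.90, -2.21 and -3.42 in turkey. Its SD was 0.12 over the quail arrays and 0.81 over the turkey arrays (n = 3 each), and its difference was 0.94 (SE 0.40), or 0.486 without turkey array 3.

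SALL4, a zinc finger transcription factor known from stem cells, showed narrow groups on both sides. Its quail levels were 1.06, 0.74 and 1.51 and its turkey levels 0.02, 0.23 and 0.10, a difference of 0.99 (SE 0.42). SYNJ2, a phosphatase of membrane phosphoinositides, was at 0.90, 0.54 and 1.63 in quail and at 0.11, -0.35 and -0.32 in turkey (1.21, SE 0.48). The other 4 genes of this direction were LOC772071 (1.39), COA3 (1.07), an assembly factor of cytochrome c oxidase, FAM13C (0.79) and SAP30L (0.63), a member of a histone deacetylase complex. SAP30L was measured by 4 clones, of which 3 gave differences of 0.73 to 0.97 and 1 gave -0.03. The quail arrays of FAM13C lay close together, at 0.15 (SD, n = 3), and its turkey arrays at 0.45.

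Among the genes lower in quail, LMF2, a lipase maturation factor of the endoplasmic reticulum, had the smallest p. It was at -0.25, 0.01 and -0.57 on the quail arrays and at 0.63, 1.17 and 1.56 on the turkey arrays, so that every quail array lay below every turkey array. The difference was -1.39 (SE 0.29, adjusted p = 0.176), and -1.02 without both arrays numbered 3. CASQ2, the calcium store protein of the heart's sarcoplasmic reticulum, was at -0.83, -0.69 and -1.39 against -0.06, -0.07 and 1.26 (-1.34, SE 0.41). CHST2, a sulfotransferase of carbohydrate chains, was at 0.00, -0.79 and -2.33 against 0.07, 0.04 and 1.01. Its arrays numbered 1 differed by -0.07 and its arrays numbered 3 by -3.34, so that the difference of -1.42 (SE 0.47) rested on the latter. TTC33 followed the same course, with pair differences of -0.30, -0.27 and -2.84.

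MAP6, FAAH and AP2B1 are known from neurons. MAP6, which stabilises axonal microtubules, was at -1.11, -0.80 and -1.28 in quail and at -0.09, -0.40 and 0.91 in turkey (-1.20, SE 0.49). FAAH, the enzyme that breaks down the endocannabinoid anandamide, was at -0.28, -0.22 and -0.72 against -0.05, 0.25 and 0.48 (-0.63, SE 0.27), and its 3 clones all pointed down, at -0.27 to -0.92. AP2B1, a subunit of the clathrin adaptor, was at 0.04, -0.02 and -1.65 against 0.44, 0.08 and 0.39 (-0.85, SE 0.37). The pairs of AP2B1 gave -0.40, -0.10 and -2.04, and without quail array 3 the difference was -0.30. SLA, an adaptor protein of immune cell signalling, was at 0.19, -0.14 and 0.23 against 1.56, 1.98 and 0.66 (-1.31, SE 0.58). Its quail arrays spread by 0.20 (SD, n = 3) and its turkey arrays by 0.67.

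**Figure D2:**
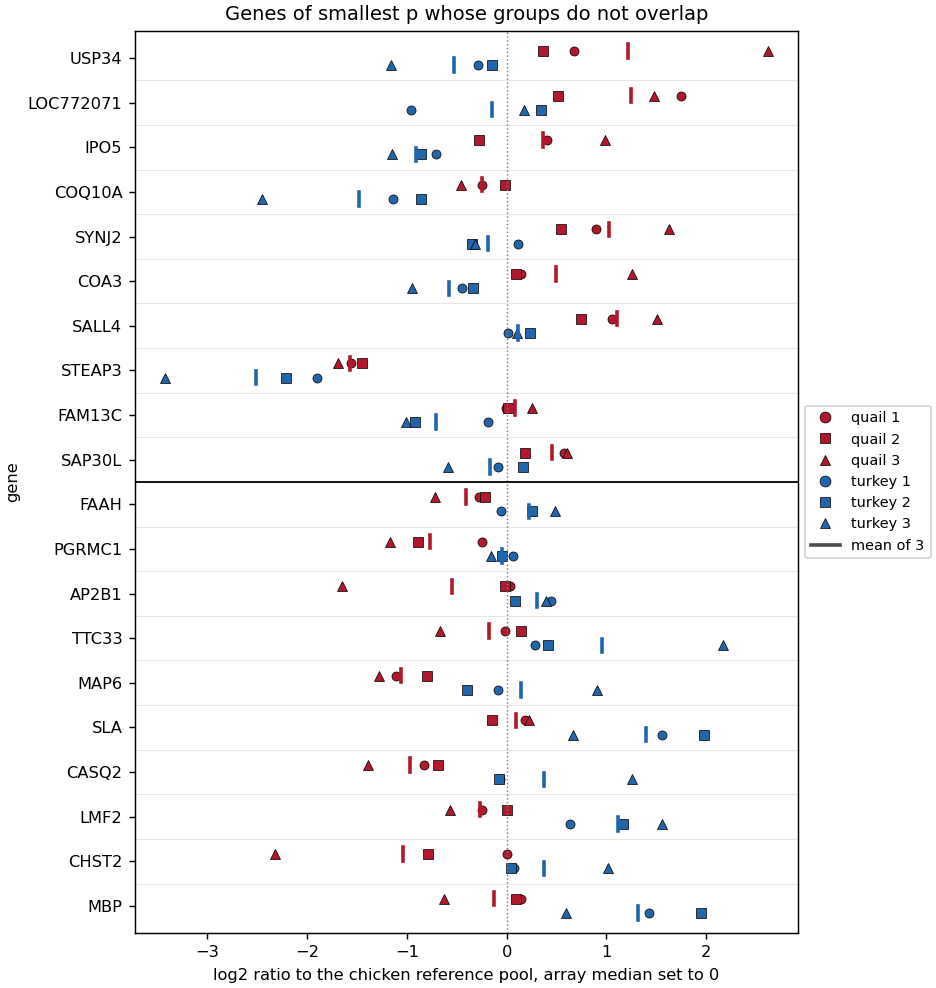
Levels of the 20 genes on each hypothalamus array, as log2 ratios to the pool, with quail in red, turkey in blue, the replicate number by symbol and the mean of 3 as a bar. Red and blue do not overlap for any gene, by the way the genes were chosen, and triangles, the arrays numbered 3, mark the widest gaps for USP34, CHST2, TTC33 and CASQ2.

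Myelin and oligodendrocyte genes included MBP, the gene with the largest difference in the downward direction. Of 33 listed genes 20 were measured, 0 passed the test in either direction, and 2 had an unadjusted p under 0.05, both lower in quail. The differences were below 0 for 16 and above 0 for 4, with a median of -0.33, against 0.03 over all genes. For 7 genes all 3 pairs pointed down and for 0 all pointed up, against 9.16% and 12.5% of all genes. For 3 genes, MBP, CLDN11 and TSPAN2, the groups did not overlap, with quail lower, against 1.4% of all genes. The list median over the pairs was 0.13 for the arrays numbered 1, -0.36 for those numbered 2 and -0.54 for those numbered 3. It was -0.18 without both arrays numbered 3 and -0.005 without quail array 3 alone.

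In 4 genes of the myelin sheath, each pair pointed the same way. MBP was at 0.14, 0.09 and -0.63 on the quail arrays and at 1.42, 1.94 and 0.60 on the turkey arrays. The pairs differed by -1.28, -1.85 and -1.23, and the chicken hypothalamus mean of 0.60 lay between the birds. The difference was -1.45 (SE 0.46, adjusted p = 1.0), and -1.57 without both arrays numbered 3. CNP, the nucleotide phosphodiesterase of myelin sheaths, was at -1.0, -1.42 and -3.02 in quail and at 0.15, -0.33 and -1.19 in turkey. One turkey array lay within the quail range, while each pair pointed down, by -1.15, -1.10 and -1.83. The difference was -1.36 (SE 0.64), and chicken hypothalamus, at 0.94, was above both. CLDN11, which forms the tight junctions of myelin, was at -0.49, -0.36 and -0.52 against 1.10, 0.21 and 0.33, a difference of -1.0 (SE 0.55). Its quail arrays spread by only 0.09 (SD, n = 3) and its turkey arrays by 0.49. TSPAN2, a tetraspanin of oligodendrocytes, was at 0.37, 0.19 and 0.27 against 0.56, 0.70 and 1.02 (-0.48, SE 0.51).

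The other members lay closer to 0. SIRT2, a deacetylase abundant in myelin, had pair differences of -0.26, -0.57 and -0.56, and UGT8, which makes the lipid galactocerebroside, of about 0, -0.41 and -0.81. The transcription factor SOX10 was at 0.45, 0.01 and -1.06 in quail and at 0.48, 0.29 and -0.60 in turkey (-0.26, SE 0.35), and turned to 0.17 without quail array 3. OLIG2, which specifies oligodendrocytes, was at 0.88, 0.66 and 0.67 against 1.96, 0.97 and 0.06 (-0.26, SE 0.60), with overlapping arrays. MOG, a protein of the outermost sheath, was at 0.55, -0.42 and -0.19 against 0.54, -0.22 and 0.76 (-0.38, SE 0.45). ENPP2, a secreted enzyme that makes lysophosphatidic acid, had the highest difference of the list at 0.37 (SE 0.36), and -0.11 without both arrays numbered 3. In liver the list's median difference was -0.01, and MBP differed there by -0.23 (SE 0.40).

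**Figure D3:**
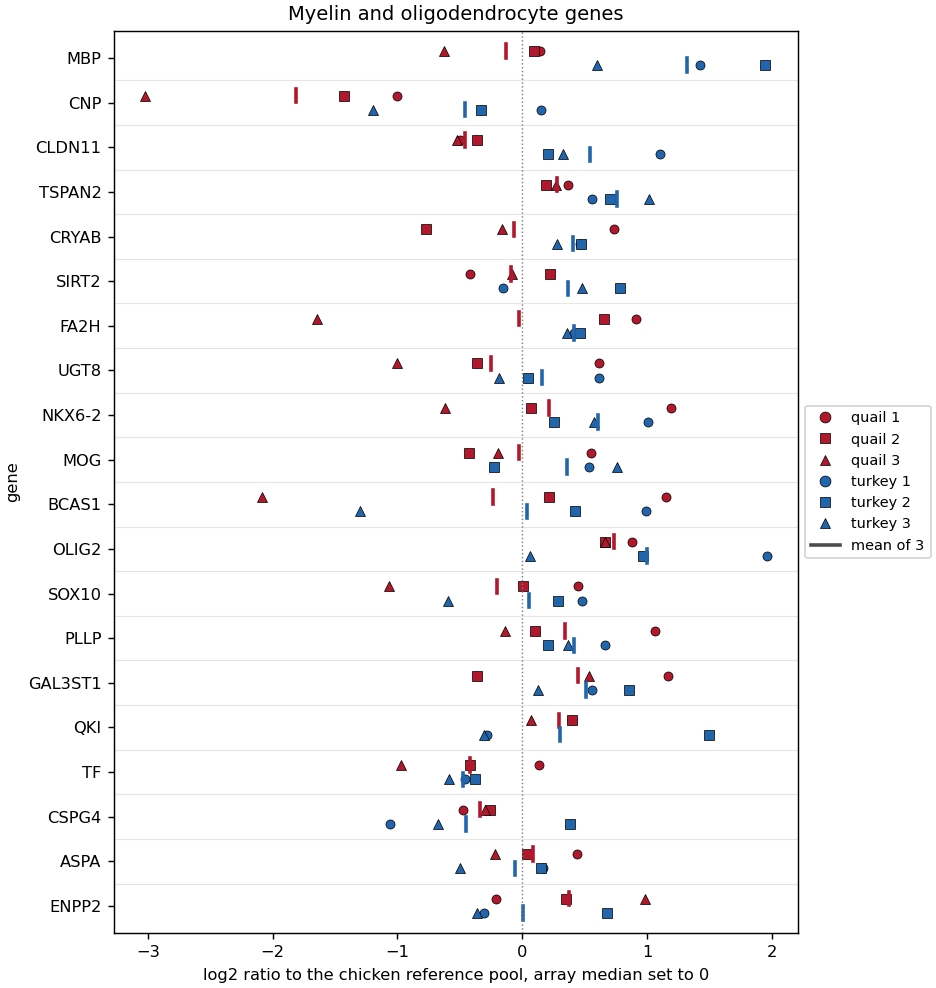
Levels of the 20 measured myelin and oligodendrocyte genes on each array, as log2 ratios to the pool, ordered by the difference from MBP at -1.45 to ENPP2 at 0.37. In MBP, CLDN11 and TSPAN2 every blue turkey symbol lies to the right of every red quail symbol, while in the other genes the colours overlap.

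Astrocyte, tanycyte and ependymal genes showed no common shift. Of 34 listed genes 12 were measured, 6 lay above 0 and 6 below, and the median difference was 0.00. The groups did not overlap for 0 of them, against 3.19% of all genes. GFAP was at -1.08, -1.35 and -1.51 in quail and at -0.31, -1.17 and -1.11 in turkey, lower in quail on all 3 pairs and with overlap (-0.45, SE 0.49). The calcium binding S100B spread from -0.86 to 2.27 in quail and from -0.35 to 0.67 in turkey, far beyond its difference of 0.15. GJA1, the gap junction protein of astrocytes, spread from -1.20 to 1.81 and from -0.45 to 1.04 (-0.23, SE 0.62). PTGDS, the prostaglandin D synthase of meninges and glia, was at 0.18, 0.65 and 0.00 against 0.45, -0.81 and -0.73 (0.64, SE 0.61).

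Neuronal genes did not separate the birds either. Of 26 measured genes of the neuronal cytoskeleton and axon, 11 lay above 0 and 15 below, with a median of -0.05. Groups overlapped for all but 1 of the 26, where 3.19% of all genes had no overlap. That gene was DPYSL2, which guides axon growth, at 0.53, 0.42 and 0.14 in quail and at 0.10, -0.15 and -1.23 in turkey (0.79, SE 0.46). The adhesion protein NFASC of the axon's initial segment had pair differences of -0.19, -1.04 and -0.83. MAPT, the microtubule protein tau, had pair differences of 0.46, 0.04 and 1.32, and the neuronal ubiquitin hydrolase UCHL1 of 0.61, 0.62 and 0.82. The list median over the pairs ran from 0.39 on the arrays numbered 1 to -0.50 on those numbered 3.

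Of 24 measured genes of synaptic vesicles and fusion, 9 lay above 0 and 15 below (median -0.10). Of these genes 0 were free of overlap, against 3.19% of all genes. STX1A, a syntaxin of the presynaptic membrane, was at -0.18, -0.77 and -1.85 in quail and at -1.70, -0.85 and -2.65 in turkey (0.80, SE 0.52). NSF, the ATPase that takes fusion complexes apart, had pair differences of -0.25, -0.72 and -0.87. Of 17 measured genes of neurotransmitters, 8 lay above and 9 below (median -0.10). The nicotinic receptor CHRNA7 was at 1.39, 0.45 and 0.11 against 0.39, 0.72 and -0.91, with pairs that disagreed in sign.

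Hypothalamic peptides are cut from precursors inside secretory granules. Of 11 measured genes of secretory granules and prohormone processing, 8 lay above 0 and 3 below, with a median of 0.15, which became -0.15 without quail array 1. CPE, the carboxypeptidase that trims peptides, was at 0.28, 0.27 and 0.77 in quail and at -0.39, 0.05 and -0.24 in turkey. Its groups did not overlap (0.64, SE 0.36). PCSK1, a convertase that cuts prohormones, was at 0.43, 0.53 and 1.10 against -0.55, 0.80 and 0.22 (0.53, SE 0.48). The granule protein CHGB was at 2.19, 0.75 and 0.84 against 0.85, 1.21 and 0.37 (0.45, SE 0.60), and the sign of its difference turned without quail array 1.

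Of 98 listed neuropeptides, hormones and receptors 23 were measured, 16 above 0 and 7 below, with a median of 0.09 and 0 that passed. Among the peptides, TAC1, the precursor of substance P, was at 0.96, 0.33 and -0.13 in quail and at -0.06, -0.06 and -1.91 in turkey. All 3 pairs were higher in quail, by 1.01, 0.39 and 1.79, and 1 quail array lay within the turkey range (1.06, SE 0.67). PNOC, the precursor of nociceptin, was at 0.77, 0.09 and 0.23 against 0.09, 0.06 and -1.02 (0.65, SE 0.37). It was the only member of the 23 whose groups did not overlap, against 3.19% of all genes. A PNOC clone with 1 spot gave 1.16 without overlap, and a clone with 2 spots gave 0.15 with overlap. NMU, neuromedin U, spread from -0.47 to 2.16 in quail and from -0.97 to 0.31 in turkey (0.78, SE 0.68).

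For feeding, POMC and NPY gave mean differences near 0, while AGRP, CARTPT, HCRT and PMCH had no named clone. POMC, the precursor of melanocortins, was at 0.03, -0.05 and -0.32 in quail and at 0.13, 0.22 and -0.97 in turkey (0.09, SE 0.44). Its clones had opposite signs, at 0.35 and -0.16. NPY, which drives feeding, was at 0.78, 0.58 and -0.61 against 0.85, -0.28 and -0.26 (0.15, SE 0.66), while chicken hypothalamus was at 1.12. PENK, the precursor of enkephalins, was at 0.13, 0.34 and 1.16 against 0.67, 0.69 and 1.12 (-0.29, SE 0.46). The 95% intervals around POMC and NPY, of -0.79 to 0.98 and -1.18 to 1.49, leave differences of either sign within reach.

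Receptors and enzymes of hormone action were spread alike. DIO2, which makes active thyroid hormone and takes part in the light response of quail hypothalamus, was at -0.28, -0.73 and -0.55 in quail and at -0.58, -0.80 and -0.25 in turkey (0.02, SE 0.38). The thyroid hormone receptor THRA was at 0.39, -0.60 and -1.16 against 0.75, -0.11 and 0.26 (-0.76, SE 0.54), lower in quail on all 3 pairs. GHR, the growth hormone receptor, was higher on all 3 pairs, by 0.23, 0.74 and 0.58 (0.52, SE 0.50). The leptin receptor LEPR differed by 0.06 (SE 0.43).

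Of 35 listed developmental transcription factors 8 were measured, with 4 above and 4 below 0. TCF7L2, an effector of Wnt signals, was at 0.35, 0.42 and 0.17 in quail and at 1.20, 2.37 and 0.29 in turkey, with 1 turkey array in the quail range (-0.97, SE 0.51). ISL1, which specifies neurons of the arcuate nucleus in mice, was at -0.61, -0.37 and -0.48 against -0.77, -0.71 and -1.73 without overlap (0.58, SE 0.44). Of 12 clock genes 4 lay above and 8 below (median -0.14). CSNK1E, a kinase of clock proteins, had pair differences of -0.90, 0.09 and -1.71 (-0.84, SE 0.41).

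Markers of tissue that a dissection may bring along were looked at beside these genes. Of 17 listed anterior pituitary genes 10 were measured, 8 above 0 and 2 below, with a median of 0.25. For 4 of them all 3 pairs were higher in quail and for 0 all were lower, against 12.5% and 9.16% of all genes. The list median was 0.66 without turkey array 1, 0.11 without quail array 1, 0.12 without turkey array 3 and 0.05 with array weights. Prolactin, PRL, was at 0.47, 0.29 and 0.02 in quail and at -0.24, 0.17 and -1.48 in turkey (0.78, SE 0.51). FSHB, the beta chain of follicle-stimulating hormone, was at 1.77, 0.34 and -0.12 against 0.34, 0.08 and -0.56 (0.71, SE 0.56), and TSHB, that of thyrotropin, at 0.13, -0.51 and 0.88 against -0.50, -0.59 and -0.53 (0.70, SE 0.58). Other pituitary hormone genes were not uniform: CGA differed by -0.03, and clones of the growth hormone gene GH by 0.81 and -0.42. Median levels of this list were 0.49, -0.31 and -0.11 on the quail arrays and -0.07, -0.06 and -0.68 on the turkey arrays. The part of the pituitary in the peptide values was not tested.

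The 5 measured erythrocyte genes had differences from -0.49 to 0.89, 3 above 0 and 2 below, and a median of 0.65, with HBA1 and HBBA, the alpha and beta globins, higher in quail on each pair. HBA1 was at 1.17, -0.11 and -0.40 against 0.14, -0.60 and -0.83 (0.65, SE 0.51). HBBA was at 0.63, 0.37 and -0.11 against 0.21, -0.68 and -0.60 (0.65, SE 0.66). The list median was 0.04 without quail array 1. In liver the same list had a median difference of 0.44. Medians of endothelial (-0.09), microglia and leukocyte (0.07) and choroid plexus and meninges genes (-0.15) lay closer to 0. In the last list TTR, the thyroxine carrier of the choroid plexus, was at -1.64, 0.12 and -1.42 in quail and at -1.07, -2.81 and -1.19 in turkey, so its difference of 0.71 came from the arrays numbered 2.

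Genes at work in all cells served as a further frame. Of 45 ribosomal protein genes 33 lay above 0 and 12 below, with a median of 0.19 and pair medians of 0.12, 0.35 and 0.15. For 9 of them all 3 pairs were higher in quail and for 1 all were lower, against 12.5% and 9.16% of all genes. RPS12 of the small subunit was at 0.19, -0.50 and -1.02 against -1.75, -0.92 and -1.06 (0.80, SE 0.52). Without quail array 1 the list median was 0.008. Oxidative phosphorylation had a median of 0.04 over 40 genes, over a range from -0.85 to 0.86. The complex I subunit NDUFS8 was at 0.63 (SE 0.34) and NDUFB6, another, at -0.85 (SE 0.55). Glycolysis gave 0.01 over 18 genes, with the hexokinase HK1 at 0.53 and the isomerase GPI at -0.62, both without overlap. Of 26 heat shock and chaperone genes 19 lay above 0 and 7 below, from -0.77 for DNAJB6 to 0.49. Their median was 0.15, with pair medians of 0.18, 0.12 and 0.13 and a liver median of 0.20. All 3 pairs were higher in quail for 6 of these genes and lower for 0, against 12.5% and 9.16% of all genes. Over the alternative settings the median ran from 0.01 to 0.20. Of 9 immediate early genes 3 lay above 0 and 6 below (median -0.07). The proteasome gave -0.06 over 31 genes, with PSMC1 at 0.38 and PSMD7 at -0.57.

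Lipid and redox genes were spread in the same manner. Of 26 genes of cholesterol and lipid synthesis 15 lay above 0 (median 0.08), and 1 had an unadjusted p under 0.05. This was ACLY, which makes cytosolic acetyl-CoA, at -0.20, -0.39 and 0.10 in quail and at -0.90, -0.08 and -1.30 in turkey (0.60, SE 0.29), with pairs of both signs. THRSP, a regulator of fat synthesis, was at -0.22, -0.49 and -0.59 against -1.23, -1.74 and -0.71 without overlap (0.79, SE 0.44). Among 31 antioxidant genes (median -0.10) PRDX4 stood at 0.85 and GCLM, a subunit of glutathione synthesis, at -0.88. Plasma protein genes of liver, low in both birds, had a median difference of 0.03 over 26 genes, with AMBP at -0.87 and ITIH3 at -0.59. Contractile genes had a median of 0.00 over 22, with CASQ2 at the low end and XIRP1, an actin binding protein of muscle, at -1.0 (SE 0.57).

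**Figure D4:**
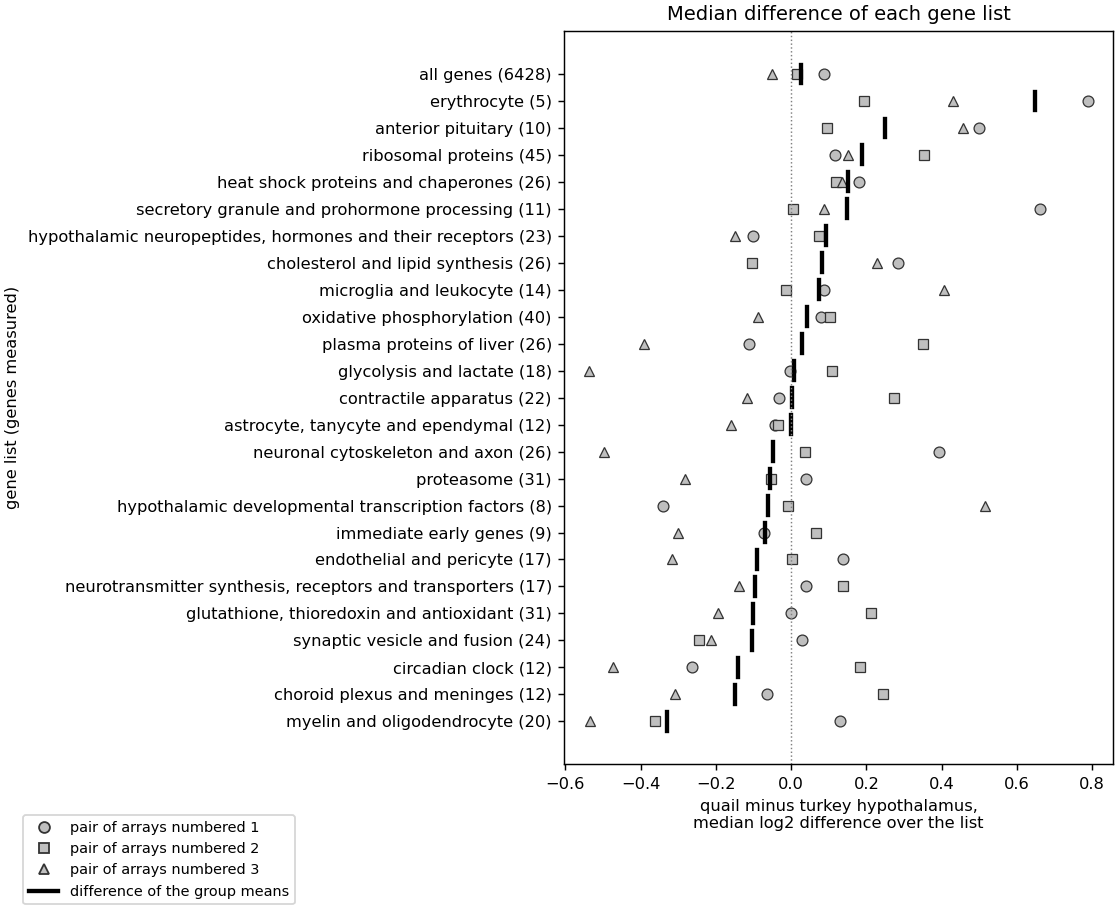
Median log2 difference, quail minus turkey hypothalamus, for each gene list (number of measured genes in brackets), as a black bar for the group means and grey symbols for the 3 pairs of equal number. The myelin list lies lowest at -0.33 and the 5 erythrocyte genes highest at 0.65, and in most lists the 3 pairs fall on both sides of 0.

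Several leading genes depended on which clone was read. LMF2 had 2 clones. The first, spotted at 2 places, was at -0.48, -0.33 and -1.80 on the quail arrays and at 1.59, 1.82 and 1.22 on the turkey arrays. All of its turkey values were above 1 and all of its quail values below 0, both spots gave the difference (-2.31 and -2.52), and the mean was -2.41 (SE 0.52, adjusted p over probes 0.430). With the replicate block in the 6 arrays alone its adjusted p was 0.0649. The second clone gave -0.37 (SE 0.49). PGRMC1, a haem-binding membrane protein, had 5 clones. The one at 2 places was at -0.04, -0.28 and -0.09 in quail and at 1.26, 2.25 and 1.12 in turkey, a difference of -1.68 (SE 0.45), and the other 4 gave -0.83, -0.36, 0.19 and -0.91. The 2 clones of MBP gave -1.68 and -1.22. Of the 2601 genes with more than 1 clone, all clones had the same sign for 42.6%, and of the 6 leading genes with more than 1 clone for 4.

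The clones of LMF2 and PGRMC1 with the large differences followed MBP on other arrays, which was looked for after their values were seen. Over the 37 other arrays, of chicken tissues, of livers and of duck hypothalamus, which share the reference pool, the level of the LMF2 clone correlated with the mean of the MBP clones at 0.80 and that of the PGRMC1 clone at 0.83. The second LMF2 clone correlated at -0.09 and the other 4 PGRMC1 clones at -0.05 to 0.24. The median over all probes was 0.02, and 2.07% of probes reached 0.5. These arrays differ in tissue and species, so r also reflects contrasts between tissues. The LMF2 clone, for instance, had a mean of 0.64 in chicken hypothalamus and of -1.69 and -1.97 in quail and turkey liver. Whether the clones vary with MBP within hypothalamus was not tested. Of the 10 probes with the smallest p between quail and turkey hypothalamus, 9 were lower in quail and 6 reached 0.5 with MBP, among them all 4 that carry no gene name here. Of the 376 probes at or above 0.5 that were neither among those 10 nor clones of MBP, 188 were lower and 188 higher in quail. The groups did not overlap for 18 of the 376 (4.79%) with quail lower and for 9 (2.39%) with quail higher, against 1.35% and 1.4% of all probes.

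One unnamed probe, for instance, was at 0.44, 0.35 and 0.37 on the quail arrays and at 1.46, 2.83 and 3.19 on the turkey arrays. Its quail values agreed closely, its turkey values did not, and its mean was 1.09 in chicken hypothalamus and -1.10 and -0.95 in quail and turkey liver. Its r with MBP was 0.79 and its difference -2.11 (SE 0.57). Another unnamed probe was at -0.11, -0.56 and -0.90 against 2.75, 1.48 and 0.53 (-2.11, SE 0.73, r = 0.68). What these clones encode is not given in the annotation used here.

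Whether a species difference was shared with another tissue was asked with the 4 quail and 4 turkey liver arrays, which the hypothalamus contrast does not use. In liver 1 gene of 6428 (0.0156%) passed and 455 (7.08%) had an unadjusted p under 0.05, and the SD of the differences over genes was 0.460. That gene was PHGDH, the first enzyme of serine synthesis. Its levels were 1.96, 3.29, 1.62 and 2.28 on the quail livers and 1.10, 0.68, -1.18 and -0.33 on the turkey livers (2.22, SE 0.43, adjusted p = 0.0408). The call was lost without quail liver array 1, 2 or 4 or turkey liver array 3 or 4, and with values not centred, scaled or quantile normalised. In hypothalamus it was at -0.44, -0.72 and -1.78 against -0.18, -0.83 and -1.48, with full overlap (-0.15, SE 0.49). The differences in the 2 tissues correlated across genes at r = -0.0676, as a description, and 48.3% of genes had the same sign in both. Of the 20 leading hypothalamus genes 7 had the same sign in liver and 13 the opposite one.

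The test of the difference between tissues, limma's contrast of hypothalamus difference minus liver difference, called 0 of 6428 genes (0%), with 225 (3.5%) at an unadjusted p under 0.05 and a smallest adjusted p of 0.208. That smallest value belonged to STEAP3. In liver it was at -1.06, -1.12, -1.70 and -0.59 in quail and at 0.33, 0.27, 0.63 and 0.45 in turkey, so quail lay below turkey in liver (-1.54, SE 0.35) and above it in hypothalamus (0.94), with a difference between tissues of 2.48 (SE 0.53). SALL4 had the same shape, at 0.05, -0.91, 0.17 and 0.22 in quail liver and at 0.87, 1.85, 0.32 and 1.18 in turkey liver (-1.17 in liver, 0.99 in hypothalamus). So had FAM20A, with -1.39 in liver and 0.47 in hypothalamus, LOC772080 (-1.40 and 0.53), CDKN2AIP (-0.97 and 1.12) and the proton pump subunit ATP6V0A2 (-0.95 and 0.67). The opposite shape was seen for CASQ2 (0.72 in liver, -1.34 in hypothalamus) and for the sulfate donor transporter SLC35B2 (1.11 and -1.14). The liver difference of SLC35B2 leaned on single arrays. A quail liver was at 1.78 against -0.10 to 0.19 on the others, and a turkey liver at -1.64 against -0.38 to -0.15. LMF2 differed by 0.01 in liver, where its levels ran from -1.21 to -0.51 in quail and from -1.04 to -0.77 in turkey.

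**Figure D5:**
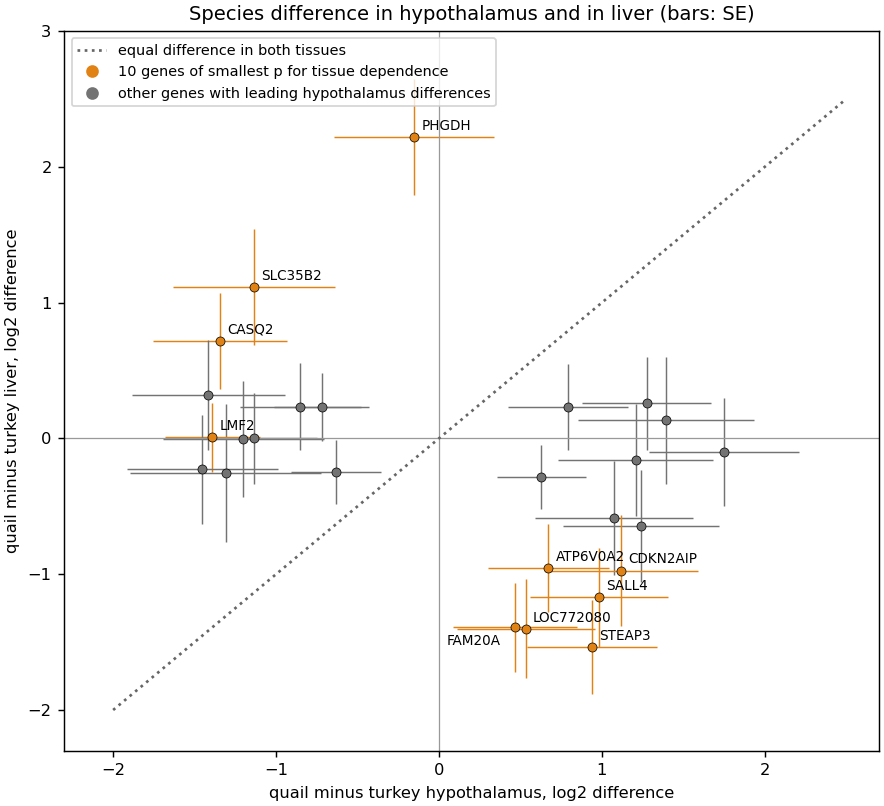
Log2 difference quail minus turkey in hypothalamus (horizontal) and in liver (vertical) with SE bars, for the 10 genes of smallest p for tissue dependence (orange, named) and the other leading hypothalamus genes (grey). No orange point lies near the dotted line of equal difference, as the choice of the genes requires, and PHGDH stands at 2.22 in liver with a hypothalamus difference of -0.15.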

How the data were processed

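The deposited table holds 1 value for each of 19200 spots on 43 two-colour arrays of chicken cDNA clones. Each value was taken as a linear ratio of both channels, since all lie above 0 and medians on the 6 arrays used were 0.849 to 1.41. Per the labels' protocols, 25 micrograms of total RNA from snap-frozen tissue were labelled with Cy3 through random primers, and the reference with Cy5, with no dyes exchanged. Scanner, background correction, normalization and numerator were not given in the sources used here. Spot intensities are unknown, and precision is set by how many arrays there are. The third quail array is numbered 19 in its description and 3 in its title, and 3 was used.

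From the deposited ratios, log2 values were taken, the median of every array was set to 0, and means were formed over the spots of a clone and then over the clones of a gene. Of the spots 10601 carried 1 gene symbol (platform annotation, updated through gene IDs to the RefSeq annotation of GRCg7b, with 10455 matched and 146 not) and 8599 none. Group means of the 12 groups were fitted over all 43 arrays with limma 3.58.1 (R 4.3.3, eBayes). P-values were adjusted after Benjamini and Hochberg over all genes or all probes, with a threshold of 0.05. The fit was tested on simulated data whose noise was drawn independently for each gene and array. Deviations shared by same-numbered arrays were not simulated, so that test does not cover them. Exact permutation tests used scipy 1.17.1. The replicate numbers were taken to pair the samples, since the deviations of same-numbered arrays correlated at 0.645, 0.251 and 0.549, all over 0.1. Both fits, with and without the replicate block, were run. SEs of named genes and the choice of leading genes came from the fit without the block.

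Named genes were those called, filled to 10 in each direction with the genes of smallest p whose groups do not overlap; up to 4 genes of smallest p in each list, and any in the peptide, myelin and astrocyte lists; and, as 0 genes were called for tissue dependence, the 10 of smallest p there, which was added after the values were seen. The comparison, the lists and the rule were chosen with earlier results of these data known, and lists are described by counts and medians, without a test. Of 24 lists 478 genes were measured and 6 lie in more than 1 list. No genome of the birds and no clone sequences were used here, so no positions or sequences are given.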

Additional observations from a re-analysis of the deposited data

Results flagged for a closer look

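Among the 4 liver arrays of each bird, 1 array stood far from the other 3 in 4 of 52 groups looked at, for the leading genes and those of tissue dependence; chance alone marks about 1 group in 20. SALL4 was at -0.91 on 1 quail liver and at 0.05 to 0.22 on the others. LMF2 was at -1.04 on 1 turkey liver and at -0.80 to -0.77 on the others. SLC35B2 was at 1.78 on 1 quail liver, against -0.10 to 0.19, and at -1.64 on 1 turkey liver, against -0.38 to -0.15. Groups of 3, as in hypothalamus, were too small to be looked at in this way.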

How the results depend on the processing

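The count of 0 genes between quail and turkey hypothalamus held under each alternative but one. With arrays weighted by their own spread, 14 genes and 54 probes passed, and 2 genes for tissue dependence. In that fit, whose weights stopped short of convergence, quail array 2 had a weight of 33.5 and the other hypothalamus arrays of both birds 0.340 to 1.64, so the quail mean rested mostly on 1 array. LMF2 (-1.11), MBP (-1.48), SLA (-1.76) and TTR (2.15) passed in it. With the replicate block in the 6 arrays alone, 4 probes passed after scaling to equal median absolute deviation and 3 after quantile normalisation, both added after seeing the data, against 0 with centring alone. With the replicate block in all 43 arrays 0 genes and 0 probes passed, and the block changed no other call. The 1 gene called in liver became 0 with values not centred, equal median absolute deviation, quantile normalisation, only the contrast's arrays in the fit, and array weights, and ranged from 0 to 3 when 1 liver array was left out, which was added after seeing the data and called 0 genes for tissue dependence. Leaving out 1 hypothalamus array at a time gave 0 called genes and 44 to 179 at an unadjusted p under 0.05. Without both arrays numbered 3 the latter were 16. The difference in SD over probes ran from -0.100 to 0.172 when 1 array was left out.

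Directions of small differences turned. PHGDH was at 0.0544 with the median over probes and 0.063 with array weights, which also gave GABARAPL2 0.050, POMC -0.0236, S100B -0.37, CHGB -0.19 and DIO2 -0.0822. DIO2 was at -0.0265 with equal median absolute deviation, with or without the block, and -0.14 with print blocks centred. S100B was at -0.0284 with quantile normalisation, with or without the block. Without both arrays numbered 3, POMC was at -0.19, ENPP2 at -0.11 and GJA1 at 0.0345. Leaving out 1 array at a time gave differences of -0.0157 to 0.71 for CHGB, -0.11 to 0.17 for DIO2, -1.0 to 0.51 for GJA1, -0.16 to 0.39 for LEPR, -0.12 to 0.58 for NPY, -0.73 to 0.22 for OLIG2, -0.48 to 0.25 for PHGDH, -0.29 to 0.31 for POMC, -0.82 to 0.75 for S100B and -0.59 to 0.17 for SOX10. List medians moved by more than their spread in 29 of 432 values, over 11 lists.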
